A study of Mus musculus with 4 samples.

Results

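Conventional dendritic cells carry a small set of identity genes, and 10 of them, Clec9a, Batf3, Itgax, Zbtb46, Wdfy4, Relb, Btla, Cd24a, Snx22 and Cadm1, are described here in progenitors sorted by an IRF8 reporter. All 10 were on the array, with 13 of its 55669 usable probes, found through the RefSeq accession that the scanner files give for each probe. They stand among 20280 genes that could be named. The cells were lymphoid-primed multipotent progenitors (LMPP) from mouse bone marrow, an early blood progenitor with lymphoid and myeloid potential. They came from IRF8-GFP knock-in mice, so both groups carry the reporter allele, and their sort took Lin-, IL-7R- and CD150- cells that were Sca-1+, CD117+, CD34+ and CD135+. The IRF8-GFP negative group and the IRF8-GFP positive group have 2 arrays each, and no treatment is named beyond the sort. The age, strain and sex of the mice, the number of alleles with the reporter and any pooling of animals are not given in the sources used here. Nothing says that arrays within a group are of different mice, so every p-value measures no more than the spread among the arrays here, which may be technical.

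Conventional dendritic cells take up antigen, carry it to lymphoid organs and present it to T cells. The branch called cDC1 depends on IRF8 together with BATF3, is marked by CLEC9A, XCR1 and CADM1, and is known for presenting antigen from dead cells on class I molecules. IRF8 binds DNA weakly alone and pairs with Ets factors such as PU.1 or with AP-1 factors such as BATF3 at composite sites.

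All values below are processed signals of the scanner software taken to log2, from which each array's 75th percentile was subtracted, called scaled log2 signals. Values of different probes are not comparable as levels, since each probe has its own brightness. On the 4 arrays 29631 to 33681 of 59305 spots were well above background and no spot was saturated. Irf8, the reporter's gene, had scaled log2 signals of 1.64 and 1.60 in IRF8-GFP negative LMPP and of 5.13 and 5.22 in positive LMPP, an 11.7-fold rise (3.55 in log2, SE 0.06, limma adjusted p = 0.000802). Of the genes behind the sorting gate, Ly6a (Sca-1), Kit (CD117), Cd34 and Flt3 (CD135) were well above background on all 4 arrays and Slamf1 (CD150) on 0. Il7r was also above background on all 4, although the sort excluded the receptor at the surface. Between the groups Il7r was higher in positive LMPP (log2 difference 2.40, SE 0.06, limma adjusted p = 0.000835) and Ly6a lower (-0.96, SE 0.07, adjusted p = 0.00222), both under all 20 alternatives, and their part in the results below was not tested.

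Promoter windows are shown for 4 genes because Clec9a, Itgax and Batf3 rose together and because the Zbtb46 window holds the only composite AP-1 and Irf match found. Each is the 250 bases before the RefSeq start site in GRCm38.p6, read 5′ to 3′ on the gene's strand, with motif matches in capitals. RefSeq promoters matched 7 of the 10 genes, all but Relb, Cd24a and Cadm1.
Clec9a (chr6:129408612-129408861, plus strand): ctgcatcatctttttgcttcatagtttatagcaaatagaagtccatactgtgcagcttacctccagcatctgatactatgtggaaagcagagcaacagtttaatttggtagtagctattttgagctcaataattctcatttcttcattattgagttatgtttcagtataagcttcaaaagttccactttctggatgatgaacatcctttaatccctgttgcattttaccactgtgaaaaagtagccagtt
Itgax (chr7:128129300-128129549, plus strand): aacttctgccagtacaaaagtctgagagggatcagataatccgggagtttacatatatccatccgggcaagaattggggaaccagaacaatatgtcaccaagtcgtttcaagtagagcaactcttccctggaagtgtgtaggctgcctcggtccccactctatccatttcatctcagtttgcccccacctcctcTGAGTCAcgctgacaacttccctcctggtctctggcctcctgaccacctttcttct
Batf3 (chr1:191098164-191098413, plus strand): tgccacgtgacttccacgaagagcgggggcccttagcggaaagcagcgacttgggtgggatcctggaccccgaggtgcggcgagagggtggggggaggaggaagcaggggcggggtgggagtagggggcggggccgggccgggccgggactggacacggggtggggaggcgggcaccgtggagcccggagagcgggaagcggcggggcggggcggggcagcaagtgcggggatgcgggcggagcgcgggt
Zbtb46 (chr2:181424389-181424638, minus strand): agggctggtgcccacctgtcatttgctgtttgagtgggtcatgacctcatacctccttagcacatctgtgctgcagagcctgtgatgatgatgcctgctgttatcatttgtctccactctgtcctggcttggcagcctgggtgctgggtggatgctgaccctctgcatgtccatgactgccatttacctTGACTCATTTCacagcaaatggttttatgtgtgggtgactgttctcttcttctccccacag
Searched on both strands were 6 motifs: the AP-1 site TGANTCA, the Ets and Irf composite (GGAA and GAAA with 2 bases between), the interferon response motif (GAAA and GAAA, 2 bases apart), an AP-1 and Irf composite (TGANTCA and GAAA, 4 bases apart), an Irf and AP-1 composite (GAAA directly before TGANTCA) and an NF-kB motif (GGG and TTTCC, 2 bases apart). Both AP-1 composites contain the AP-1 site. The AP-1 site occurred in the windows of Itgax, as TGAGTCA from 56 to 50 bases before the start, and of Zbtb46, and in 6.75% of all 32851 promoter windows of this length. In Zbtb46 it was part of TGACTCATTTC, from 61 to 51 bases before the start, which is GAAA directly before TGANTCA when read on the other strand. That composite occurred in 0.1% of all windows. The other motifs were in 0 of the 8 windows of these genes and in 0.0974% (the AP-1 and Irf composite with a gap) to 2.98% (the interferon response motif) of all windows, and Clec9a and Batf3 matched none of the 6. A match describes these letters in this window and is no evidence of binding.

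Of the 10 genes 9 passed the filter on dim probes, 4 were higher in IRF8-GFP positive LMPP (Clec9a, Itgax, Batf3 and Cd24a), 1 was lower (Relb) and 4 did not pass (Btla, Zbtb46, Wdfy4 and Snx22). Cadm1 stayed below the detection level of all 4 arrays and was not tested. Over the whole table of 22362 genes (transcripts without a symbol included), limma called 59.9% at an adjusted p under 0.05, 38.5% as higher and 21.4% as lower, so the number of calls among these genes lay near the background. The groups did not overlap for 8 of the 9 genes, near the 82.2% of all genes tested (52.4% with both positive arrays above and 29.8% with both below the negative ones). The median log2 difference of the 9 was 0.20, with or without Clec9a at its bound, beside 0.16 for all genes tested. It was 0.11 without positive replicate 1, and its sign turned with centring on the probes detected on every array (-0.04, beside -0.07 for all genes) and with spike-in scaling (-0.11, beside -0.14). The count of 13390 calls over all genes fell to 7612 without negative replicate 1 and to 7723 without negative replicate 2. The calls of Itgax, Batf3 and Relb held whichever single array was left out. Clec9a kept its call too, but it passed the filter through the positive group alone. Arrays were left out after that filter, so its held call is no separate support. In RNA of bulk-sorted cells, more cells of a kind and more RNA per cell cannot be told apart.

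**Figure D1:**
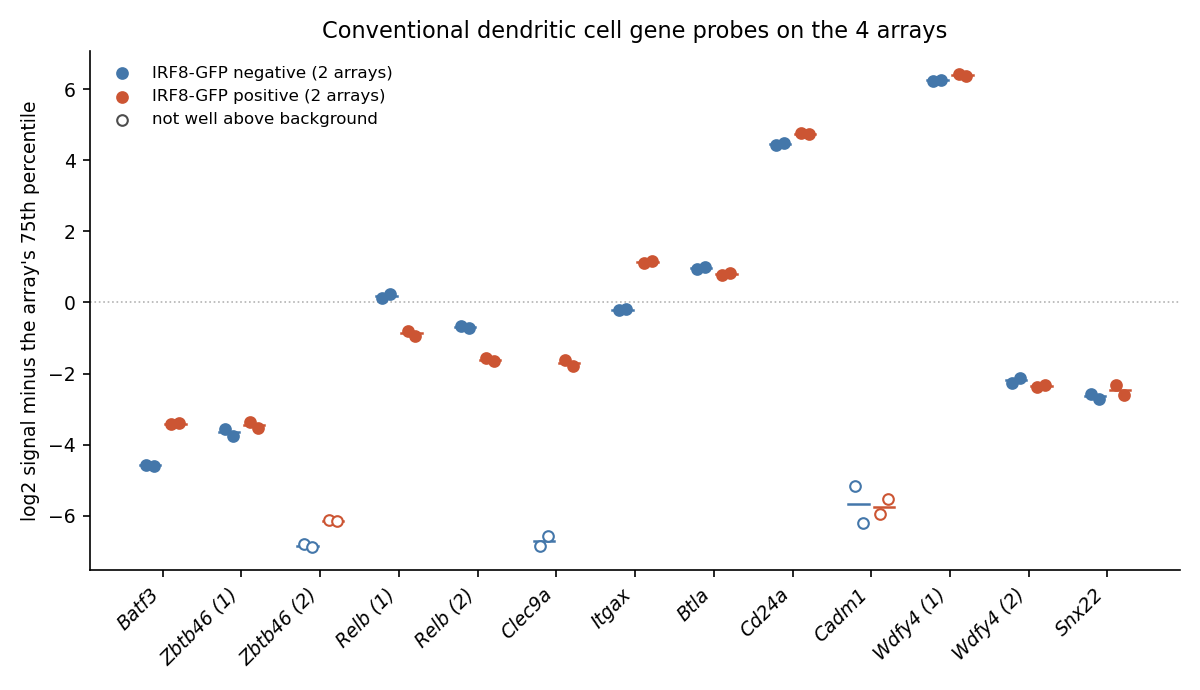
Scaled log2 signal (y axis) of the 13 probes (x axis) on the 2 IRF8-GFP negative arrays (blue) and 2 positive arrays (orange), with bars at group means and open points for groups not well above background on any array; (1) marks the brighter probe, which represents its gene. Clec9a goes from below background to -1.61 and -1.78, Itgax and Batf3 shift up, and both Relb probes shift down.

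Among the transcription factors, Batf3 was higher and Relb lower. Batf3, the AP-1 family factor that works with IRF8 in cDC1, had scaled log2 signals of -4.57 and -4.60 on the negative arrays and -3.41 and -3.40 on the positive arrays. Both positive arrays lay above both negative ones. The difference was 2.26-fold (log2 1.18, SE 0.05, limma adjusted p = 0.00144), the 300th highest of the 22362. Batf3 was a dim gene: its processed signals were 18.4 and 22.4 in the negative group, only 1.07 and 1.10 times the lowest signal called well above background on those arrays, and 29.9 and 39.2 in the positive group, or 1.49 and 1.52 times. The software's own error estimates of these spots were 3.87, 4.63, 4.98 and 6.43. Without the filter on dim probes the median log2 difference of all genes was 0.34 in place of 0.16. Among probes below background on all 4 arrays, the second Zbtb46 probe differed by 0.70, Xcr1 by 0.68 and Tlr3 by 0.69. Cadm1 and Irf4, also below background, each differed by -0.06. How much of the Batf3 difference is such a shift of dim signals was not tested. The gain held its sign and its call under all 20 alternatives, with log2 differences from 0.70 with normexp background correction, which compresses dim signals, to 1.24.

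Relb encodes a subunit of NF-kB in the noncanonical pathway and is needed for some conventional dendritic cells. Its brighter probe had scaled log2 signals of 0.11 and 0.24 in the negative group and of -0.81 and -0.93 in the positive group. Both positive arrays lay below both negative ones, and the gene was 2.07-fold lower (log2 difference -1.05, SE 0.08, limma adjusted p = 0.00223). The dimmer Relb probe ran the same way, with -0.66 and -0.73 against -1.57 and -1.65 and a log2 difference of -0.92 (SE 0.07, adjusted p = 0.00267 in a limma fit of all probes). The decrease held its sign and its call under all 20 alternatives, from -0.86 to -1.36 in log2 difference. For Relb both probes on the array thus gave the same change.

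Zbtb46 encodes a zinc finger factor that among immune cells marks conventional dendritic cells and their committed precursors. Its scaled log2 signals were -3.55 and -3.74 in the negative group and -3.37 and -3.54 in the positive group, so the groups were 0.01 apart. It did not pass (log2 difference 0.20, 95% interval -0.10 to 0.49, limma adjusted p = 0.179), and the sign turned with spike-in scaling (-0.11) and when arrays were centred on the probes detected on every one of them (-0.04). It passed only with normexp background correction (0.31, adjusted p = 0.0238). The second Zbtb46 probe was below background on all 4 arrays. Its signals of 3.92 to 5.84 were about equal to their error estimates of 3.93 to 5.86.

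Among the surface proteins, Clec9a and Itgax rose. Clec9a encodes the receptor DNGR-1, which senses dead cells and is found on cDC1 and on precursors of conventional dendritic cells. Its processed signals were 3.80 and 5.67 on the negative arrays, 0.22 and 0.28 times the lowest signal called well above background, and 104 and 121 on the positive arrays, 5.20 and 4.69 times that level. Clec9a was thus detected on both positive arrays and on neither negative array. It passed the filter on dim probes through the positive group alone. The scaled log2 signals were -6.85 and -6.58 against -1.61 and -1.78. Against the detection level of the negative arrays the gene was at least 8.04-fold higher, a bound without a test of its own. The fitted log2 difference of 5.02 (SE 0.12, limma adjusted p = 0.000852) rests on negative signals at the scanner's floor and is no bound. It kept its sign and call under the 19 alternatives in which it could be tested, from 1.75 with normexp background correction to 5.16. The remaining alternative required signal on all 4 arrays and leaves Clec9a out.

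Itgax encodes CD11c, the integrin alpha chain commonly used to mark dendritic cells, which other myeloid cells carry too. Its scaled log2 signals were -0.22 and -0.20 in the negative group and 1.10 and 1.17 in the positive group. The groups were clearly apart: the rise was 2.54-fold (log2 difference 1.34, SE 0.06, limma adjusted p = 0.00144), the 217th highest of all. Itgax was measured well within range on every array, at 21.9 to 36.3 times the lowest detected signal. All 20 alternatives kept the call, with log2 differences of 1.04 to 1.38.

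Cd24a, a small lipid-anchored glycoprotein of cDC1 and of many immature blood cells, was bright, with scaled log2 signals of 4.44 and 4.49 in the negative group and of 4.75 and 4.72 in the positive group. Although it passed (log2 difference 0.28, SE 0.06, limma adjusted p = 0.018), it lay only 0.11 above the median of all genes. The sign turned with quantile normalization (-0.09), in the authors' deposited value table on a log2 scale (-0.10), with cyclic loess (-0.10) and with spike-in scaling (-0.03). The call ended without negative replicate 1 (adjusted p = 0.105), negative replicate 2 (0.0806) or positive replicate 1 (0.0594). No direction can be given for Cd24a.

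Btla encodes an inhibitory receptor of lymphocytes that cDC1 also carry. Its scaled log2 signals were 0.93 and 1.001 in the negative group and 0.76 and 0.83 in the positive group, without overlap. The log2 difference of -0.17 (95% interval -0.35 to 0.01) did not pass (limma adjusted p = 0.082). It was below 0 under all 20 alternatives, from -0.13 to -0.48, and passed under 8 of them, among them quantile normalization (-0.27, adjusted p = 0.0278), the authors' deposited value table (-0.27, 0.0269) and spike-in scaling (-0.48, 0.00512). Cadm1, an adhesion molecule that marks cDC1, gave processed signals of 12.2, 7.39, 5.13 and 8.99 in the order negative replicates 1 and 2 and positive replicates 1 and 2. These were 0.71, 0.36, 0.26 and 0.35 times the lowest detected signal, and the groups overlapped, so no difference was measurable for it on these arrays.

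The 2 genes of intracellular trafficking did not pass. Wdfy4 encodes a BEACH domain protein needed in cDC1 to present antigen taken up from cells. Its brighter probe had scaled log2 signals of 6.22 and 6.27 in the negative group and of 6.41 and 6.36 in the positive group, a log2 difference of 0.14 (95% interval -0.02 to 0.30, limma adjusted p = 0.109). Its dimmer probe pointed the other way, with -2.26 and -2.12 against -2.37 and -2.33 (log2 difference -0.16, SE 0.08, adjusted p = 0.148 in the fit of all probes). The 2 probes therefore disagreed in sign, their mean gave -0.01, and the brighter probe passed as lower with quantile normalization (-0.34, adjusted p = 0.0147), in the authors' deposited value table (-0.35, 0.0145) and with cyclic loess (-0.28, 0.025). Snx22, a sorting nexin gene of the cDC1 signature, had -2.58 and -2.70 in the negative group and -2.33 and -2.61 in the positive group. It was the tested gene whose groups overlapped (log2 difference 0.17, 95% interval -0.16 to 0.51, limma adjusted p = 0.269), and its sign turned with spike-in scaling (-0.13) and with centring on the probes detected on every array (-0.06).

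**Figure D2:**
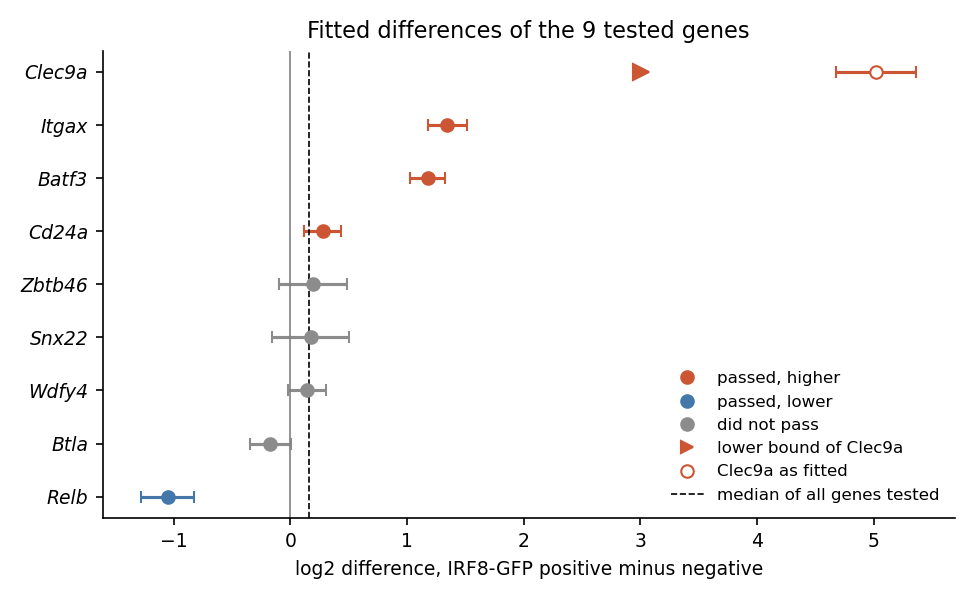
Log2 difference, positive minus negative (x axis), of the 9 tested genes (y axis) with 95% intervals from limma; the dashed line is the median of all genes tested, 0.16, and the triangle is the lower bound of Clec9a, whose fitted value is open. Relb lies below 0, Itgax, Batf3 and Clec9a lie well above the median, and the intervals of Zbtb46, Snx22, Wdfy4 and Btla include 0.

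The small differences moved with the choice of scaling. The median of all genes tested was 0.16 here and went from -0.14 with spike-in scaling to 0.20 with normexp background correction. The split of all calls was 8611 higher and 4779 lower here, 6059 and 5466 with quantile normalization, 6035 and 5487 in the authors' deposited value table, 5471 and 5776 with cyclic loess, 4382 and 7253 when centred on the probes detected on every array and 3299 and 8102 with spike-in scaling. Relative to the median of 0.16, Itgax lay 1.18 higher, Batf3 1.01 higher and Relb 1.22 lower (-1.22). Zbtb46, Snx22 and Wdfy4 lay within 0.03 of it, at 0.03, 0.01 and -0.02. Batf3, Itgax and Relb passed in the same direction under each of the scalings tried. Clec9a did too, but it had passed the filter through the positive group alone.

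**Figure D3:**
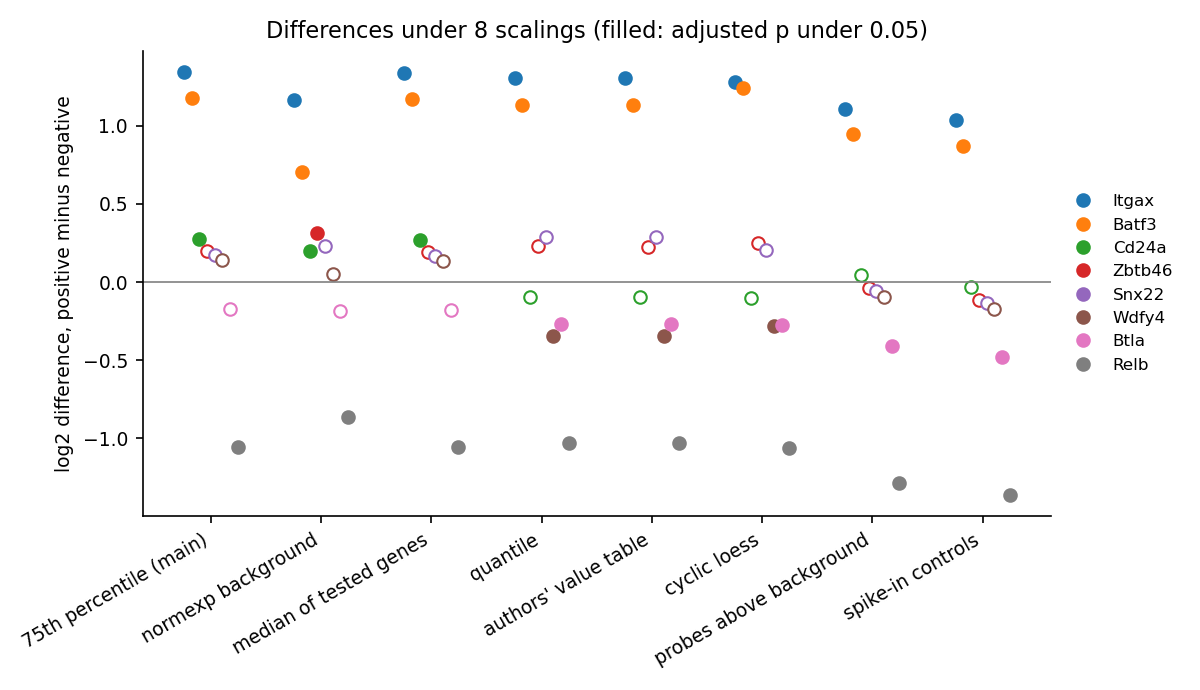
Log2 difference, positive minus negative (y axis), of 8 tested genes under the main scaling and 7 others (x axis); filled points have a limma adjusted p under 0.05. Itgax and Batf3 stay above 0.70 and Relb stays below -0.86, while Cd24a, Zbtb46, Snx22 and Wdfy4 cross 0.

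Other genes of conventional dendritic cells moved both ways. Of 72 listed, 68 were on the array and 52 were tested, of which 20 were higher, 15 lower and 17 passed in neither direction. The 20 include Irf8, whose reporter defined the groups, so its direction is no result of the comparison. Over all genes tested 38.5% were called higher and 21.4% lower, so the number called higher lay near the background. These shares also stand beside the counts of the smaller lists below, none of which was tested as a set. The median log2 difference of the 52 was 0.03 beside 0.16 for all genes. The sign of this median is not settled. It was -0.22 with quantile normalization and in the authors' deposited value table and -0.20 with cyclic loess. With centring on the probes detected on every array it was -0.21, and with spike-in scaling -0.28. Without a filter on dim probes it was 0.19, beside 0.34 for all genes in that setting. With 1 array left out it lay between 0.0051 (without positive replicate 2) and 0.056 (without negative replicate 2). Without negative replicate 1 there were 11 higher and 7 lower, and without negative replicate 2 there were 14 and 8. With quantile normalization there were 10 and 24, and with spike-in scaling 9 and 26. Of 15 other cDC1 genes on the array 6 were below background on all arrays, among them Xcr1, Cd8a and Tlr3, while Naaa, Clnk and Kmo were among those above it on all 4. Of 12 cDC2 genes 6 were below background on all arrays, among them Cd209a, Clec4a4 and Dtx1, while Sirpa, Cd4, Clec10a and Mgl2 were above it on all 4. Irf4 was below background on all arrays.

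Of 18 tested transcription factors of dendritic cells, 8 were higher and 1 lower, beside 38.5% higher and 21.4% lower over all genes. The 8 include Irf8, whose reporter defined the groups. The counts varied with the processing. They were 5 and 8 with quantile normalization and 5 and 1 without negative replicate 1. Besides Irf8, Nfil3, a factor needed early in cDC1 development, rose 3.22-fold (1.69 in log2, SE 0.07, adjusted p = 0.0013 in limma). Batf2, an AP-1 family relative of Batf3, was the factor that fell (-1.40, SE 0.06, adjusted p = 0.0013), opposite in sign to Batf3. Batf, the third relative, had a difference of 0.02 and did not pass (adjusted p = 0.766). Nfil3 and Batf2 kept their calls under all 20 alternatives. Of 5 cytokine receptor genes 3 were higher and 1 lower. They were 2 and 3 with quantile normalization and in the authors' deposited value table, and 2 and 0 without either negative array. The calls were led by Csf1r, the M-CSF receptor gene (2.74, SE 0.06, adjusted p = 0.000802), and Csf2rb, the beta chain shared by the GM-CSF, IL-3 and IL-5 receptors (0.57, SE 0.06, adjusted p = 0.0031). The third receptor gene called higher, Flt3 (0.25, SE 0.06, adjusted p = 0.0257), has no settled direction, with -0.23 in the authors' deposited value table on a log2 scale and a call that ended whichever single array was left out. Kit fell (-0.39, SE 0.06, adjusted p = 0.00769), a call lost without either negative array (highest adjusted p 0.0597). Csf2ra, the alpha chain gene of the GM-CSF receptor, did not pass (-0.28, SE 0.09, adjusted p = 0.061) but passed as lower under 12 of 20 alternatives.

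Other genes of the cDC1 signature did not move as a block: of 9 tested 3 were higher, 4 lower and 2 did not pass. Rab7b, a small GTPase gene, was higher (4.34, SE 0.07, limma adjusted p = 0.000802), with 1 negative array above background, and so was Kmo, which encodes kynurenine monooxygenase (1.69, SE 0.07, adjusted p = 0.00137). Among the genes called lower were Gcsam (-1.05, SE 0.09, limma adjusted p = 0.00273) and Clnk (-0.60, SE 0.08, adjusted p = 0.00546). Both kept their calls under all 20 alternatives. Ly75, which encodes the endocytic receptor DEC-205, was below background in the positive group and at least 1.04-fold lower, a bound near no change. Its fitted log2 difference of -1.73 (SE 0.12, limma adjusted p = 0.00202) rests on those dim signals, and its sign turned with normexp background correction (0.08). Of 6 tested cDC2 genes 3 were higher and 1 lower, and with quantile normalization 1 was called, as higher. They were led by Cx3cr1, the fractalkine receptor gene, which monocytes share (4.48, SE 0.07, adjusted p = 0.000802). Mgl2, a lectin receptor gene, followed at 0.48 (SE 0.05, adjusted p = 0.00414) but did not pass under 4 of the scalings.

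Maturation genes, which dendritic cells raise on activation, were mostly lower, as Relb was. Of 7 tested 5 were lower and 1 higher, beside 21.4% lower and 38.5% higher over all genes. The median was -0.34 (-0.28 with genes below background at their bound) and stayed between -0.27 and -0.65 under the other scalings. Cd86, a costimulatory ligand of T cells, fell (-1.21, SE 0.09, limma adjusted p = 0.00207), as did Traf1, a signalling adaptor of TNF receptors (-0.85, SE 0.07, adjusted p = 0.00222). Both kept their calls under all 20 alternatives. Cd83 was below background in the positive group and at least 1.15-fold lower. Its fitted log2 difference of -1.61 (SE 0.21, limma adjusted p = 0.00572) rests on those dim signals, and the call was lost with normexp background correction (-0.01). Nfkb2, whose product is a partner of RelB, was lower by little (-0.25, SE 0.06, adjusted p = 0.0266), and lost its call without either negative array or without positive replicate 2 (highest adjusted p 0.131). With any of these arrays left out alone, the list had 3 calls, each a decrease. Of 7 class II presentation genes 3 were lower and 2 higher, and with quantile normalization the calls were 4 decreases. Without negative replicate 2 there was 1 call each way, and without negative replicate 1 limma made 0 calls, with 5 genes below an unadjusted p of 0.05. Among the genes that passed, the largest changes were those of Cd74, the invariant chain gene (-0.49, SE 0.07, adjusted p = 0.00772), H2-Eb1 (-0.40, SE 0.07, adjusted p = 0.012) and the peptide-loading gene H2-DMb1 (0.37, SE 0.07, adjusted p = 0.0152). The Cd74 call was lost without negative replicate 1 (0.0561), the H2-Eb1 call without either negative array (up to 0.0758), and the H2-DMb1 call without negative replicate 1 (0.0759) and under 5 of the scalings. Ciita, the class II transactivator gene, was at -0.55 (SE 0.31, adjusted p = 0.191) with 1 positive array above background, and of 19 alternatives it passed, as lower, only without positive replicate 1. Its sign turned under 1 of the 7 other scalings (0.01).

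**Figure D4:**
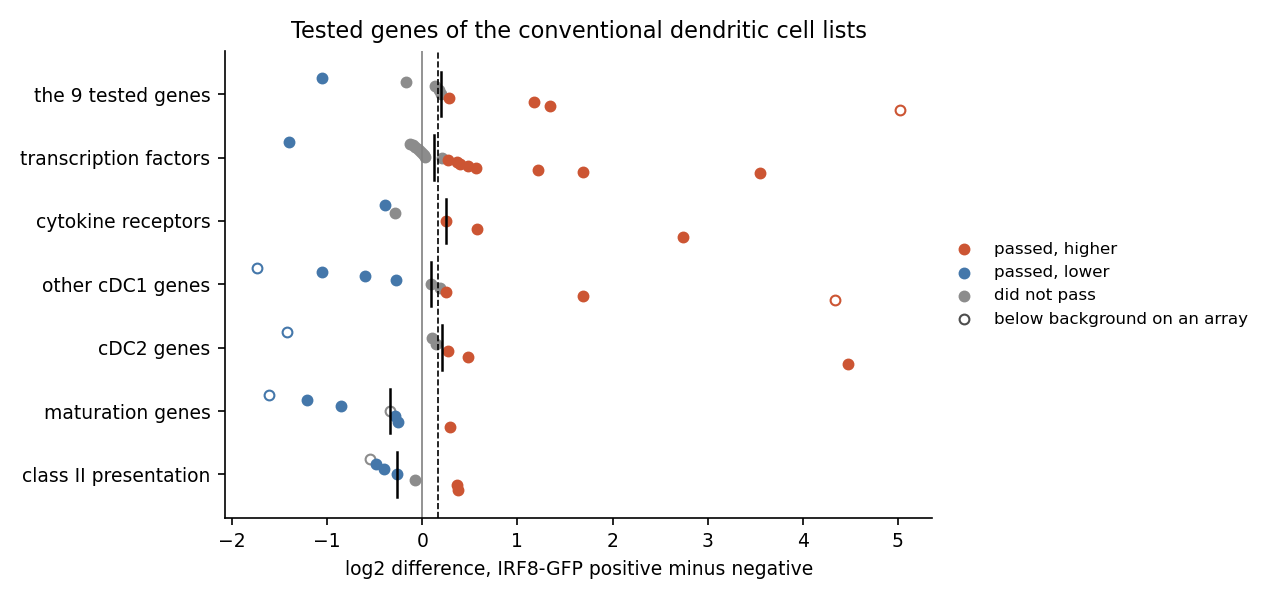
Log2 difference, positive minus negative (x axis), of each tested gene in 7 lists (y axis), coloured by limma call, with a black bar at each list's median and a dashed line at the median of all genes tested, 0.16; open points were below background on at least 1 array. The maturation list has 5 of 7 genes called lower, and the transcription factor list has 8 of 18 called higher, Irf8 included. Over all genes tested 21.4% were called lower and 38.5% higher.

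Markers of other cell types moved with the same sort, and their part in the changes above was not tested. Their counts stand beside 38.5% of all genes called higher and 21.4% called lower. Of 8 tested monocyte markers 6 were higher and 1 lower, and the list's summed signal, in units of each array's 75th percentile, was 32.8 to 37.3 on the negative and 106 to 108 on the positive arrays. F13a1 (log2 difference 5.25, SE 0.10, limma adjusted p = 0.000802) and Cx3cr1 led. Of 8 neutrophil markers 4 were higher and 1 lower (summed 442 to 468 against 974 to 1068), with Ctsg at 3.19 (SE 0.07, adjusted p = 0.000802) and Elane at 1.57 (SE 0.06, adjusted p = 0.0013). The neutrophil marker called lower was S100a9 (-1.11, SE 0.07, limma adjusted p = 0.0019). Ltf and Ngp, which are late granule genes, were below background on all arrays. Camp, of the same list, was above it on all 4 and did not pass (-0.09, limma adjusted p = 0.305). Of 7 plasmacytoid dendritic cell markers 4 were higher and 1 lower (146 to 191 against 163 to 187), and Spib and Klk1 were below background. The increases were led by Ly6d (3.34, SE 0.15, adjusted p = 0.00141) and Cox6a2 (2.999, SE 0.06, adjusted p = 0.000802). Ccr9 was the marker called lower (-1.81, limma adjusted p = 0.00105), and Siglech did not pass (-0.20, adjusted p = 0.501). Of 6 B cell markers 4 were higher and 0 lower (13.9 to 14.6 against 24.3 to 24.4), with Blnk at 1.72 (SE 0.06, adjusted p = 0.0012) and Vpreb3 at least 2.57-fold higher, while Ebf1, Ms4a1 and Igll1 were below background. Of 6 T and NK cell markers 2 were higher and 3 lower (54.9 to 56.3 against 56.8 to 57.5), Gata3 by -2.06 (SE 0.05, adjusted p = 0.000859) and Thy1 by -0.89 (SE 0.07, adjusted p = 0.00229), and Cd3d, Cd3g and Ncr1 were below background. Stem cell markers fell, 7 of 9 tested (81.1 to 84.1 against 29.1 to 30.5), with Esam at -3.94 (SE 0.08, adjusted p = 0.000802), Procr at -2.61 (SE 0.12, adjusted p = 0.00144) and Slamf1 below background. Platelet and red cell markers fell in 8 of 9 (18.2 to 19.6 against 10.5 to 10.99), with Pf4 at -1.80 (SE 0.07, adjusted p = 0.00126) and Gp9 at -1.36 (SE 0.06, adjusted p = 0.00136). The called genes named in these lists kept their calls under each scaling and whichever single array was left out. The plasmacytoid count of 4 higher went to 2 with quantile normalization and without negative replicate 1, and the T and NK count of 2 higher to 1 with quantile normalization. Without negative replicate 1 or 2 the T and NK list kept 2 calls, both decreases.

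Genes with the most similar pattern over the 4 arrays were sought for Batf3, Itgax and Relb, by the root mean square distance between scaled log2 values centred on each gene's own mean. Nearest to Batf3 were Ttyh2 (distance 0.01), 2810408I11Rik (0.02) and Trip13 (0.02). Nearest to Itgax were Cyp4f18 (0.02), Ptger2 (0.02) and Aurka (0.03). Nearest to Relb was Gcsam (0.02), a cDC1 signature gene of the lists above with a log2 difference of -1.05 (SE 0.09, limma adjusted p = 0.00273), then Dkkl1 (0.02) and Cabyr (0.02). With 4 arrays in 2 groups this ranks genes mainly by how close their difference is.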

How the data were processed

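RNA of 4 sorted samples was hybridized to 4 one-colour Agilent arrays on 1 slide, scanned on 1 day. Per the file headers, Agilent Feature Extraction 10.7.3.1 gave each spot a processed intensity, background-subtracted and detrended by the authors' scanner software, not normalized between arrays, with an error estimate and flags. The authors' deposited value table holds quantile-normalized intensities, judging from identical sorted values in its columns. Control and outlier spots were left out, and 12 of 55681 probes had none left. Processed signals were taken to log2 and centred on each array's 75th percentile. Probes well above background (at least 0.5 of spots) on both arrays of a group or of both were kept (30478), and a gene is its brightest kept probe. Accessions were matched to GRCm38.p6 RefSeq names: 26756 probes had 1 symbol and 28913 none. limma 3.58.1 (R 4.3.3; lmFit, eBayes) compared positive with negative, two-sided, Benjamini-Hochberg over 22362, threshold 0.05. It was tested on simulated data. The number of arrays limits precision. "At least N-fold" sets the brighter group's mean against, per array, the higher of the dim signal and the lowest signal well above background.

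The members and lists were chosen with earlier results of these data known. Named genes were all members, Irf8, and up to 3 per dendritic cell list and 2 per other marker list with the largest change past the threshold. Also named were genes of these lists below background and the 3 nearest patterns. Batf, Nfkb2, Tlr3, Csf2ra, Ciita, Naaa, Clnk, Sirpa, Cd4, Clec10a, Ccr9, Siglech, S100a9, Camp and the differences of Il7r and Ly6a were added after their values were seen. Some genes of these lists are not reported here by name. Alternatives were a replicate block, each array left out, 7 other scalings or sources of values, 2 filters, 2 variance models, 2 treatments of probes and 2 thresholds.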

Additional observations from a re-analysis of the deposited data

How the results depend on the processing

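Batf3, Itgax and Relb kept direction and call under all 20 alternatives. Clec9a did so under all 19 that could be run for it, but it passed the filter through the positive group alone. The number of members called higher was 4 and stayed between 3 and 5. The number called lower, 1, was 3 with quantile normalization, cyclic loess and the authors' deposited value table, where Btla and Wdfy4 joined Relb, and 2 with centring on the probes detected on every array, spike-in scaling, either intensity trend and an adjusted p of 0.1, where Btla joined. Leaving out 1 array gave 3 to 4 higher and 1 lower. Of the other dendritic cell genes, Irf8 included, 20 were higher and 15 lower. The counts were 10 and 24 with quantile normalization, 10 and 24 in the authors' table and 10 and 23 with cyclic loess. They were 11 and 25 with centring on probes above background, 9 and 26 with spike-in scaling and 13 and 9 at an adjusted p of 0.01. With 1 array left out they were 11 to 17 and 7 to 15. Log2 differences turned sign for Zbtb46 (-0.039 centred on detected probes, -0.11 with spike-in scaling), Snx22 (-0.060 and -0.13), Cd24a (-0.094 quantile, -0.032 spike-in, -0.10 loess, -0.097 authors' table) and Wdfy4 (-0.34 quantile, -0.095 probes above background, -0.17 spike-in, -0.28 loess, -0.35 authors' table, -0.0098 mean of probes). The cause of these changes was not tested. With the replicate number as a block the members had 4 higher and 1 lower calls, and 13946 genes passed in place of 13390. Arrays of the same number had deviations correlated at 0.0971 over genes, and with 2 pairs this does not show what the number shares. Slide or scan day as a block could not be fitted, since all arrays share 1. Signals near background limit Batf3, Zbtb46, Clec9a and Cadm1.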
